A study of Mus musculus with 2 samples.

Results

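The genes described here are 10 known identity genes of adventitial fibroblasts, Pi16, Dpp4, Ly6a, Ly6c1, Cd34, Clec3b, Dpt, Cd248, Scara5 and Entpd2. They were chosen by symbol, and all 10 were found among the 16040 genes of the deposited count table. The table compares lung fibroblasts of Col1a2-EGFP mice, which carry a green fluorescent reporter named for the type I collagen gene Col1a2, 14 days after bleomycin or saline was put into the trachea. Bleomycin breaks DNA and is a standard agent of experimental lung fibrosis. Both libraries come from reporter-positive, lineage-negative cells sorted from digested lung, profiled by SAGE (serial analysis of gene expression), a method that counts 1 short tag from the 3′ part of each transcript. Each group is 1 library made from fibroblasts of 3 mice, so no value has a replicate. The age and sex of the mice and the lineage markers used are not given in the sources used here.

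Adventitial fibroblasts lie in the connective tissue cuff around the larger airways and blood vessels of the lung, apart from the fibroblasts of the alveolar walls. In mice they are recognised by surface proteins such as Sca-1 (the product of Ly6a), CD34 and DPP4, and by secreted proteins such as PI16 and dermatopontin. None of these genes is restricted to fibroblasts. Endothelial cells also express Cd34, Ly6a and Ly6c1, pericytes express Cd248, and glial cells of several tissues express Entpd2.

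The bleomycin library held 1099840 counts over 12918 genes and the saline library 1080798 counts over 12275 genes. Levels are given as CPM, counts scaled to a common library size, and a single count was worth 0.922 CPM in the bleomycin library and 0.912 CPM in the saline library. Of 12 general fibroblast markers, 12 were detected in both libraries, with 29710 counts in the bleomycin library and 19073 in the saline library. The defining markers of leukocytes and epithelium were at or near 0, with 1 bleomycin and 0 saline counts of Ptprc, which encodes CD45, and 0 bleomycin and 1 saline count of the epithelial adhesion gene Epcam. Summed over whole lists, leukocyte markers had 25 bleomycin and 89 saline counts and epithelial markers 38 bleomycin and 234 saline counts. Endothelial markers summed to 105 bleomycin and 808 saline counts. Col1a2, the gene the reporter is named for, was 3.47-fold higher in the bleomycin library (exact 95% interval 3.28 to 3.67), and whether this had a part in which cells passed the sort was not tested.

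What a SAGE library counts for each gene is a tag that begins at a CATG, the site of the anchoring enzyme. The table itself lists no tags, so the tag expected for each gene was read from the GENCODE M21 transcript (GRCm38) of the record that the table names, as the 25 bases from the last CATG of the transcript. Tags are shown for Clec3b and Scara5, which were among the lowest ratios, for Cd248, the highest ratio, for Ly6c1 and its near copy Ly6c2, whose tags could be mistaken for each other, and for their relative Ly6a. Capitals mark the CATG.
Clec3b (chr9:123156976-123157000, plus strand): CATGaccggcggcctcctggcctac
Scara5 (chr14:65764731-65764755, plus strand): CATGgcctggatttcagggactaat
Cd248 (chr19:5070553-5070577, plus strand): CATGgcaaaggacacaccaggactc
Ly6a (chr15:74994904-74994928, minus strand): CATGtatcctgaatgtccccctgtt
Ly6c1 (chr15:75045049-75045073, minus strand): CATGtatgcctgtcaatgacccctg
Ly6c2 (chr15:75108190-75108214, minus strand): CATGtgtgcctgtcaatgacccctg

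The Clec3b tag lay in the coding sequence, in exon 3 of 3, and 457 bases from the end of the transcript. The other 5 tags lay in the 3′ untranslated region of the last exon. For the last-CATG tag of each of the 10 genes, 0 other genes of the annotation held the same 25 bases at any CATG, and 0 other genes overlapped the tag on either strand. Tags at earlier CATG sites were not all distinct, since Ly6c1 shared 3 of its 5 CATG tags with Ly6c2 and 1 with Ly6a. The tags of Ly6c1 and Ly6c2 differed by 1 base of 25, A6G, with positions counted from 1 at the C of CATG, the Ly6c1 base first. The tags of Ly6a and Ly6c1 differed at 14 of 25 bases. Ly6c2 had 2 counts in the bleomycin library and 2 in the saline library, beside 142 bleomycin and 176 saline counts of Ly6c1, so nearly all counts assigned to this pair stood under Ly6c1. The labels do not say how tags with a mismatch were treated, and the split between Ly6c1 and Ly6c2 is therefore uncertain.

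The design sets fibroblasts of injured lungs against those of control lungs. Of the 10 adventitial genes, 7 fell in the bleomycin library, 0 rose and 3 were not called. Pi16, Dpp4, Cd34, Clec3b, Dpt, Scara5 and Entpd2 were lower, while Ly6a, Ly6c1 and Cd248 stayed within 2-fold. A gene was called when it differed at least 2-fold and had a Benjamini-Hochberg adjusted p under 0.05 in a two-sided exact binomial test on the counts of the gene, over 9369 genes with at least 10 counts. Among all of these, 8.59% were called lower and 8.11% higher. Counting the ratio alone, 14.2% of tested genes were at least 2-fold lower and 13.2% at least 2-fold higher, against 7 and 0 of the 10 adventitial genes. The median log2 ratio of the 10 genes was −1.70, and that of all tested genes was 0.01. With 1 library a group, the test sets library against library and says nothing of the spread between animals. In sorted bulk RNA, fewer cells of a type and less RNA per cell cannot be told apart.

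Taken as a sum, the 10 genes had 2765 counts in the bleomycin library, against 5994 in the saline library, a ratio of 0.467 of the scaled sums. Dpt alone made up 47.9% of the bleomycin sum (exact binomial interval 46.0 to 49.8) and 44.8% of the saline sum (43.5 to 46.0). Cd248 made up 10.1% of the bleomycin sum (8.99 to 11.3) and 3.85% of the saline sum (3.38 to 4.37). The share of Clec3b was lower, with 2.64% of the bleomycin sum (2.08 to 3.31) and 7.71% of the saline sum (7.04 to 8.41). The genes thus kept neither a common ratio nor common shares.

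**Figure D1:**
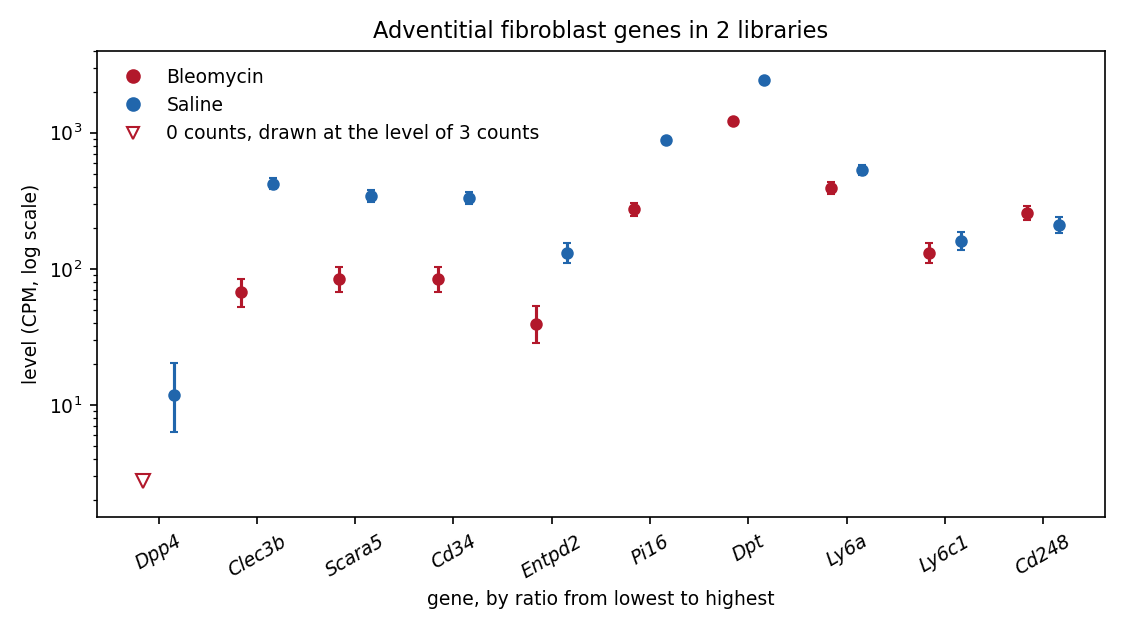
Level of each of the 10 genes in the bleomycin library (left point of each pair) and the saline library (right point), in CPM on a log scale, with exact 95% Poisson intervals that cover counting error only; genes run from the lowest ratio to the highest. Clec3b stands at 67.3 CPM in the bleomycin library and 421 CPM in the saline library, whereas Cd248 stands at 257 CPM in the bleomycin library and 211 CPM in the saline library, and the open triangle marks Dpp4 at 0 bleomycin counts.

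The secreted and matrix genes Clec3b, Pi16 and Dpt were all lower. Clec3b encodes tetranectin, a secreted C-type lectin that binds plasminogen. It had 73 counts (67.3 CPM) in the bleomycin library and 462 counts (421 CPM) in the saline library. Its intervals, 52.8 to 84.7 CPM for bleomycin and 384 to 462 CPM for saline, were far apart, and the gene was 6.26-fold lower (4.88 to 8.12, exact adjusted p = 3.345e-67). Only 1.87% of tested genes had a lower ratio. Pi16 encodes a secreted or membrane-anchored protein with a CAP domain and marks fibroblasts around vessels in several mouse tissues. It had 296 counts (273 CPM) in the bleomycin library and 964 counts (879 CPM) in the saline library. This was 3.22-fold lower (2.82 to 3.68, exact adjusted p = 3.895e-79), and 5.88% of tested genes had a lower ratio. Dpt encodes dermatopontin, a matrix protein that binds decorin and promotes collagen fibril assembly. It had 1325 counts (1222 CPM) in the bleomycin library and 2684 counts (2448 CPM) in the saline library. At 2.003-fold lower (1.87 to 2.14, exact adjusted p = 1.274e-98) it lay just past the required fold, so its call rests on where that limit is set, although the interval of the ratio, 0.467 to 0.533, was far from 1.

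Membrane enzymes were lower as well. Dpp4 encodes a membrane serine peptidase that trims the ends of chemokines and peptide hormones. It had the fewest counts of the 10, with 0 counts in the bleomycin library, with an exact upper limit of 3.40 CPM, and 13 counts (11.9 CPM) in the saline library. Computed against a floor of 3 counts (2.77 CPM) in the bleomycin library, and leaving out the counting error of the saline count, it was at least 4.28-fold lower. With counting error in both libraries, the exact interval reached down to 3.01-fold (exact adjusted p = 0.001654). Entpd2 encodes an ectonucleotidase that removes a phosphate from extracellular ATP. It had 43 counts (39.7 CPM) in the bleomycin library and 143 counts (130 CPM) in the saline library. The gene was 3.29-fold lower (2.32 to 4.74, exact adjusted p = 2.585e-12).

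Scara5 encodes a class A scavenger receptor that takes up ferritin. It had 91 counts (83.9 CPM) in the bleomycin library and 374 counts (341 CPM) in the saline library, and was 4.06-fold lower (3.22 to 5.17, exact adjusted p = 2.538e-39). Cd34 encodes a sialomucin of the cell surface that is known from haematopoietic progenitors and endothelium as well as from fibroblasts. It also had 91 counts (83.9 CPM) in the bleomycin library, against 366 counts (334 CPM) in the saline library, and was 3.98-fold lower (3.15 to 5.06, exact adjusted p = 1.047e-37). For Scara5, 3.82% of tested genes had a lower ratio, and for Cd34, 3.87%.

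The 3 genes that were not called all encode surface proteins, as do Dpp4, Entpd2, Scara5 and Cd34 among the lower genes. Ly6a encodes the glycolipid-anchored antigen Sca-1, which marks mouse haematopoietic stem cells and mesenchymal progenitors. It had 425 counts (392 CPM) in the bleomycin library and 581 counts (530 CPM) in the saline library. The ratio of 0.740 (0.651 to 0.840) excluded 1 within counting error (exact adjusted p = 2.293e-05) but did not reach the required fold. Ly6c1 encodes a related anchored antigen, and its 142 counts (131 CPM) in the bleomycin library and 176 counts (160 CPM) in the saline library gave a ratio of 0.816 (0.649 to 1.02, exact adjusted p = 0.1812). Cd248 encodes endosialin, a transmembrane lectin-like glycoprotein of stromal fibroblasts and pericytes. It was the only one of the 10 with more counts in the bleomycin library, 279 (257 CPM), against 231 counts (211 CPM) in the saline library. Its ratio was 1.22 (1.02 to 1.46, exact adjusted p = 0.08421), and the interval lay wholly below 2.

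**Figure D2:**
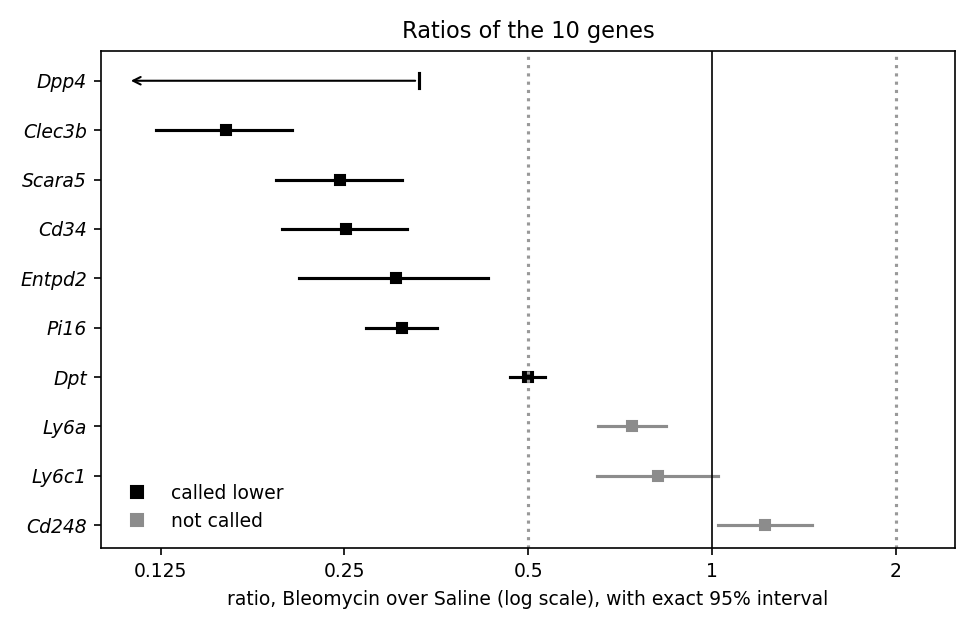
Ratio of the bleomycin to the saline level for each of the 10 genes on a log scale, with exact 95% intervals; black marks called genes, grey marks genes that were not called, the solid line is a ratio of 1 and dotted lines are 2-fold. The arrow for Dpp4 starts at the upper limit of 0.332, because it had 0 bleomycin counts, and Dpt at 0.499 sits on the lower 2-fold line.

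Ordered by ratio, the genes ran Dpp4, Clec3b, Scara5, Cd34, Entpd2, Pi16, Dpt, Ly6a, Ly6c1 and Cd248. The intervals of neighbours overlapped from Dpp4 to Pi16, and again from Ly6a to Cd248. The interval of Pi16 (0.272 to 0.354) did not overlap that of Dpt (0.467 to 0.533), which in turn did not overlap that of Ly6a (0.651 to 0.840). The interval of Clec3b (0.123 to 0.205) also lay below that of Pi16. Within a library, the counts of 1 gene per count of another do not depend on library scaling. There were 1.06 Pi16 counts for each Cd248 count in the bleomycin library, against 4.17 in the saline library. For each Ly6a count there were 0.172 Clec3b counts in the bleomycin library and 0.795 in the saline library. Scara5 and Cd34 stood close to each other in both libraries, at 0.307 counts of either per Pi16 count in the bleomycin library, against 0.388 for Scara5 and 0.380 for Cd34 in the saline library.

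Pi16, Entpd2 and Cd34 moved by similar ratios, 0.311, 0.304 and 0.251, as did Scara5 at 0.246, for which no promoter was matched. The promoters of Pi16, Entpd2 and Cd34 are shown to set their sequences side by side. The promoter table of RefSeq (GRCm38.p6) matched 6 of the 10 genes with 7 promoters. Each sequence runs from 250 bases before to 50 bases after the start of the gene. Capitals mark matches to a set of motifs that was searched on both strands.
Pi16 (chr17:29318632-29318931, plus strand): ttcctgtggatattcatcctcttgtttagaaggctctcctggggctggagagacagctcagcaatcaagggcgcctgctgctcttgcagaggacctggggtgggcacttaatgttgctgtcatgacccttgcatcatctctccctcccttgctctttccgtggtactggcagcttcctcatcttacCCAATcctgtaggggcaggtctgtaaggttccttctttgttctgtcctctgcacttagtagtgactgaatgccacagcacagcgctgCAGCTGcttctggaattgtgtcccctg
Entpd2 (chr2:25395624-25395923, plus strand): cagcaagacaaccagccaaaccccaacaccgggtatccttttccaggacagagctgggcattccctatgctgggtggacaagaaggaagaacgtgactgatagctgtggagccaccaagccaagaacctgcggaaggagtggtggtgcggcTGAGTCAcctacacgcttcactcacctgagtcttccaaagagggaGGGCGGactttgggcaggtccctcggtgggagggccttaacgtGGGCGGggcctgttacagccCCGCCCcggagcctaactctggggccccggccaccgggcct
Cd34 (chr1:194938571-194938870, plus strand): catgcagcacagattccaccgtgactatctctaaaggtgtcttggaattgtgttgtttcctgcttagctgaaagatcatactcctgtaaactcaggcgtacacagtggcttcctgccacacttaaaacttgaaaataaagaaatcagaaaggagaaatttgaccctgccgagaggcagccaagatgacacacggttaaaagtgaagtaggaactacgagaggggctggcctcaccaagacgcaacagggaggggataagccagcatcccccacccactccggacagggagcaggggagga

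The motifs were the TATA box (TATAAA), the GC box (GGGCGG), the AP-1 site (TGANTCA), the CCAAT box (CCAAT), a tandem Smad box (GTCTAGAC) and the E-box CAGCTG. The Pi16 promoter held 1 CCAAT box and 1 E-box, the Entpd2 promoter 3 GC boxes and 1 AP-1 site, and the Cd34 promoter none of the 6 motifs. In none of these 3 promoters did matches overlap. Among all 32851 promoters of the table, 37.4% held CCAAT, 16.3% CAGCTG, 35.7% GGGCGG and 7.81% TGANTCA, while 13.6% held TATAAA and 0.213% GTCTAGAC. The 3 promoters shown thus shared no motif of this set, and their GC content was 53.3% for Pi16, 62.0% for Entpd2 and 50% for Cd34. The matched promoters that are not shown did share motifs. CAGCTG, found for Pi16, was also found for Dpt and Ly6c1, and CCAAT was also found for Ly6c1. TATAAA was found for Dpp4, Dpt and Ly6c1. Ly6c1 was matched by overlapping windows, which both held CAGCTG. The window at chr15:75048788-75049087 also held TATAAA and CCAAT, and that at chr15:75048614-75048913 held neither. A match describes letters in this window and not a bound site.

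A wider list of 40 other adventitial fibroblast genes moved in the same direction more often than the other. The list was drawn from general knowledge, but with earlier results of these data known. Of 35 tested members, 19 fell and 2 rose, with a median log2 ratio of −1.33, against 8.59% lower and 8.11% higher over all tested genes. Pcolce2, an enhancer of procollagen processing, had 180 bleomycin and 1895 saline counts and was 10.4-fold lower (8.93 to 12.2). Igfbp6, a binding protein of insulin-like growth factors, had 231 bleomycin and 1274 saline counts and was 5.45-fold lower (4.74 to 6.30). Has1, a hyaluronan synthase, had 295 bleomycin and 749 saline counts and was 2.51-fold lower (2.19 to 2.88). Members that did not fall included Mfap5 and Fbn1, microfibril genes, with ratios of 1.60 (785 bleomycin and 495 saline counts) and 1.81 (1233 bleomycin and 688 saline counts). The 2 risen members were Fbln2, a fibulin, with 395 bleomycin and 185 saline counts, and Prg4, the lubricating proteoglycan lubricin, with 21 bleomycin counts and 1 saline count. Mfap5, Fbn1, Fbln2 and Prg4 were named after their values were seen. Il33, which encodes an alarmin of adventitial cells and was also named after its values were seen, had 42 bleomycin and 44 saline counts.

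Genes of alveolar fibroblasts were lower to a like degree in these libraries. Of 29 tested members, 18 fell and 1 rose, beside 8.59% lower and 8.11% higher over all tested genes, with a median log2 ratio of −1.71, and −1.70 for the 10 adventitial genes. Inmt, a methyltransferase gene of alveolar fibroblasts, had 1197 bleomycin and 11323 saline counts and was 9.35-fold lower (8.81 to 9.94). Npnt, which encodes the matrix protein nephronectin, had 118 bleomycin and 408 saline counts and was 3.42-fold lower (2.78 to 4.23). General fibroblast markers had 1 of 12 lower and 4 higher with a median of 0.19, and fibrosis-associated genes had 17 of 19 higher and 0 lower with a median of 3.38 (2.98 when genes at 0 take their bound). Genes outside the adventitial lists were thus lower as well, and no test of a difference between these lists was made. The lists are not fully separate. The 1 lower general marker, the decorin gene Dcn, is also on the wider adventitial list, and Pdgfra is on the alveolar and general lists.

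**Figure D3:**
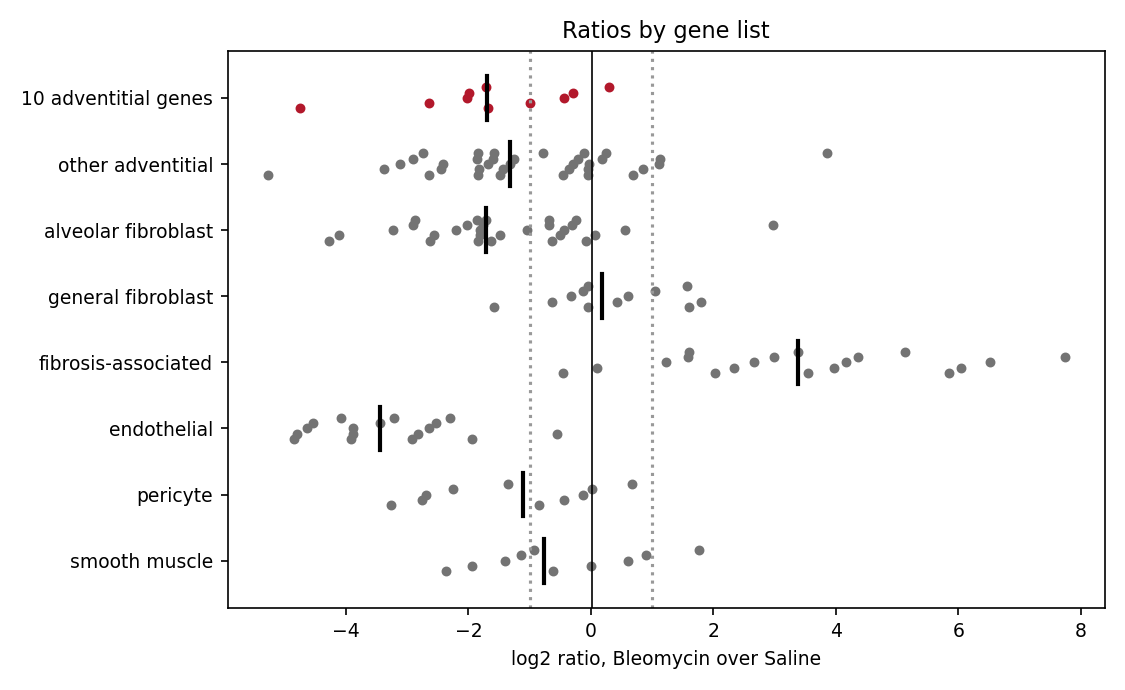
Log2 ratio of bleomycin over saline for each tested gene of 8 lists, with the median of each list as a black bar; the solid line is the median of all tested genes and dotted lines are 2-fold. The medians of the 10 adventitial genes (−1.70) and of the alveolar fibroblast genes (−1.71) lie close together, between the endothelial (−3.44) and the general fibroblast (0.19) medians.

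Because several of the 10 genes are also expressed by other cells, the markers of those cells are given beside them. Of 22 endothelial markers, 17 were tested, 15 fell and 0 rose, beside 8.59% lower and 8.11% higher over all tested genes, and their median log2 ratio was −3.44 (−2.93 when genes at 0 take their bound). With a minimum of 50 counts fewer markers were tested, and 8 fell, all of those tested but Plvap. Bonferroni adjustment left 9 lower. The shares over all tested genes were then 10.2% lower with that minimum and 3.58% with Bonferroni adjustment. Summed over the list there were 105 counts in the bleomycin library, of which 55 were Plvap, and 808 in the saline library. Pecam1, a junction protein, had 3 bleomycin and 53 saline counts, Cdh5, the vascular cadherin, had 1 bleomycin and 11 saline counts, and Emcn was at 0 in both. Cd34 had 366 counts in the saline library, beside 53 of Pecam1 and 142 of Egfl7, a secreted endothelial protein. Ly6a and Ly6c1, which endothelium also expresses, had ratios of 0.740 and 0.816, while Pecam1 had 0.0572 (0.0114 to 0.177). The part of endothelial RNA in the ratios of Cd34, Ly6a and Ly6c1 was not tested.

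Among pericyte markers, 10 were tested, 5 fell and 0 rose, with a median of −1.10, and the list summed to 203 bleomycin and 455 saline counts. Rgs5, a defining pericyte gene, had 2 counts in each library. The shares over all tested genes were 8.59% lower and 8.11% higher. Smooth muscle markers had 4 of 10 lower and 1 higher, with sums of 3205 bleomycin and 2722 saline counts. Their median was −0.77 but 0.0098 with a minimum of 50 counts, which left 2 lower. Myh11, the smooth muscle myosin, had 106 bleomycin and 237 saline counts and fell. Hhip had 51 bleomycin and 267 saline counts and was 5.18-fold lower (3.8 to 7.1). Synpo2, with 9 bleomycin and 25 saline counts, and Cnn1, with 4 bleomycin and 17 saline counts, fell as well. Des, the intermediate filament protein desmin, had 571 bleomycin and 169 saline counts and was 3.42-fold higher (2.87 to 4.08). Tagln, an actin-binding protein, had 1220 bleomycin and 814 saline counts, a ratio of 1.52 that was not called. Acta2, smooth muscle actin, had 609 bleomycin and 328 saline counts, a ratio of 1.88 that was not called. Epithelial markers summed to 38 bleomycin and 234 saline counts, with 2 of 5 tested genes lower, and 154 of the saline counts were Sftpc, surfactant protein C, which had 7 bleomycin counts. The other lower gene was Scgb1a1, with 12 bleomycin and 46 saline counts. Leukocyte markers summed to 25 bleomycin and 89 saline counts, of which Cd74, the invariant chain, held 16 bleomycin and 72 saline counts. Haematopoietic progenitor markers summed to 22 bleomycin and 51 saline counts, of which Hlf held 20 bleomycin and 32 saline counts. Kit, with 2 bleomycin and 17 saline counts, fell, but not with Bonferroni adjustment. Mesothelial markers summed to 147 bleomycin and 178 saline counts, of which Upk1b held 131 bleomycin and 154 saline counts. Lymphatic endothelial markers summed to 7 bleomycin and 18 saline counts, of which Lyve1 held 5 bleomycin and 14 saline counts. Schwann and glial markers summed to 23 bleomycin and 11 saline counts. Of these, S100b held 18 bleomycin and 4 saline counts and rose, but not with Bonferroni adjustment. Msln, mesothelin, had 2 bleomycin and 3 saline counts. Whether RNA of these cell types had a part in the ratios of the 10 genes was not tested.

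**Figure D4:**
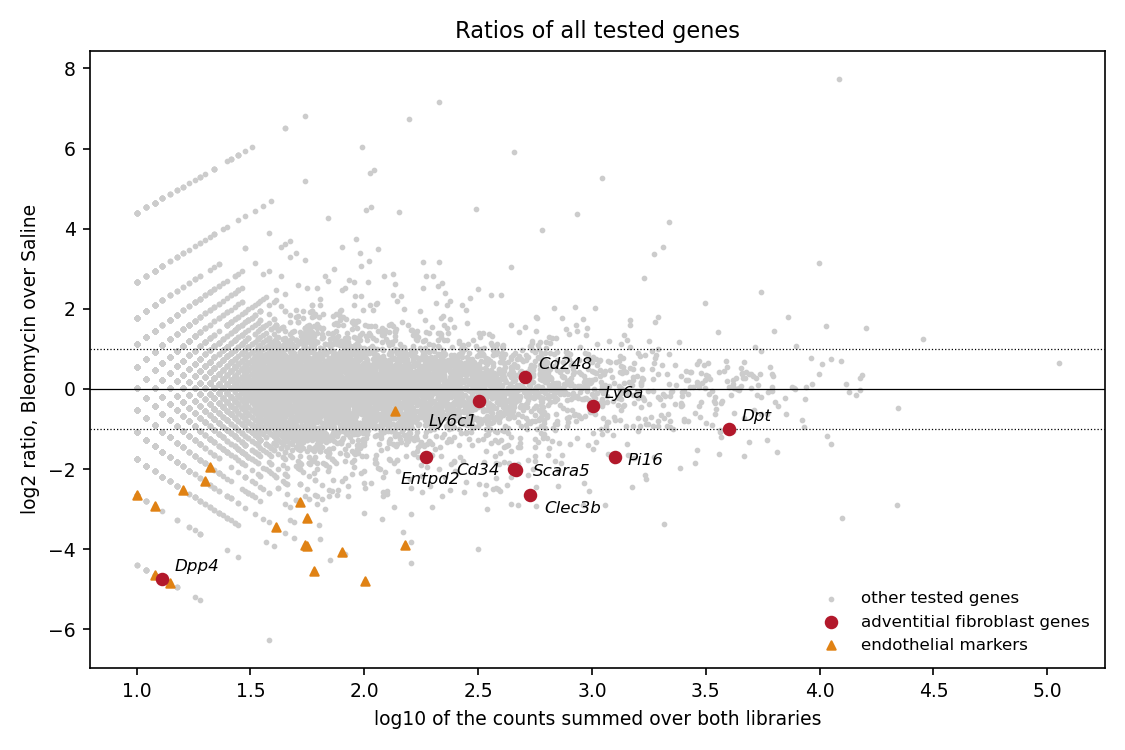
Log2 ratio of bleomycin over saline for each of 9369 tested genes against the log10 of its counts summed over both libraries, with the 10 adventitial genes in red and endothelial markers as orange triangles; dotted lines are 2-fold. All adventitial genes but Dpp4 lie at 186 to 4009 summed counts, where Clec3b has the lowest log2 ratio of them at −2.64, and Dpp4 lies with the endothelial markers at low counts.

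The relatives of the 10 genes were examined by protein family, and each count is to be read against the 8.59% lower and 8.11% higher over all tested genes. In the CAP family of Pi16, 1 of 5 tested members fell, Pi16 itself, and 1 rose. Crispld2, a secreted family member, had 1541 bleomycin and 1710 saline counts, a ratio of 0.911 (0.850 to 0.977) that was not called, whereas Glipr1 had 27 bleomycin counts and 1 saline count. Among the prolyl peptidases, Dpp4 fell and the other 3 tested members were not called. The intracellular peptidases Dpp8 and Dpp9 had ratios of 0.961 (0.60 to 1.54) and 1.18 (0.740 to 1.88), and Fap, a membrane peptidase of activated fibroblasts, had 6 bleomycin and 0 saline counts and was not tested. Of 4 tested genes on the list of DPP4 substrates, which also held the DPP4-binding enzyme gene Ada, Cxcl12 rose and Ccl11 fell. Cxcl12 had 440 bleomycin and 131 saline counts and was 3.40-fold higher (2.79 to 4.16), and Ccl11, eotaxin, had 97 bleomycin and 234 saline counts and was 2.38-fold lower (1.87 to 3.06).

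In the Ly6 family, 8 members were tested, 2 fell and 0 rose, with a median log2 ratio of −0.36, beside 8.59% lower and 8.11% higher over all tested genes. The lower count was 1 with a required ratio of 3 and 0 with Bonferroni adjustment. Ly6e, a broadly expressed member, had 319 bleomycin and 462 saline counts and a ratio of 0.698 (0.604 to 0.807), close to that of Ly6a. The fallen members were Gpihbp1, a lipase-binding protein of capillary endothelium, with 3 bleomycin and 20 saline counts, and Lynx1, a modulator of nicotinic receptors, with 16 bleomycin and 40 saline counts. Of the sialomucins related to Cd34, Podxl, podocalyxin, had 1 bleomycin and 14 saline counts and fell, and Podxl2 had 5 bleomycin and 13 saline counts and was not called. Among the C-type lectins grouped with Clec3b and Cd248, 4 of 6 tested members fell, Clec3b included. Of these, Cd93, with 4 bleomycin and 76 saline counts, and Clec14a, with 4 bleomycin and 17 saline counts, are also on the list of endothelial markers, of which 15 of 17 fell. Thbd, thrombomodulin, had 299 bleomycin and 1429 saline counts and was 4.73-fold lower (4.17 to 5.37), while Clec11a, a secreted growth factor for stromal and blood progenitors, had 177 bleomycin and 337 saline counts and a ratio of 0.531 (0.440 to 0.639) that was not called.

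Partners of dermatopontin in fibril assembly were called in both directions, with 5 of 9 tested members higher and 2 lower, Dpt itself included. Dcn, Lum, Col1a1 and Col1a2 of this list are also on the list of general fibroblast markers. Dcn, decorin, had 1606 bleomycin and 4861 saline counts and was 2.99-fold lower (2.83 to 3.17). In contrast, Fmod, fibromodulin, had 413 bleomycin and 154 saline counts and was 2.71-fold higher (2.25 to 3.29), and Fn1, fibronectin, had 8890 bleomycin and 1018 saline counts and was 8.83-fold higher (8.28 to 9.43). Of the scavenger receptors and ferritin genes, Scara5 was the only member that fell. Colec12, another scavenger receptor, had a ratio of 0.985 (0.801 to 1.21), and the ferritin heavy chain gene Fth1, with 8571 bleomycin and 6789 saline counts, had a ratio of 1.28 (1.24 to 1.32). Tfrc, the transferrin receptor, with 17 bleomycin counts and 1 saline count, and Slc40a1, the iron exporter ferroportin, with 31 bleomycin and 7 saline counts, rose. The list of ectonucleotidases and adenosine enzymes, which includes the intracellular kinase gene Adk, had 3 of 9 tested members lower and 0 higher, beside 8.59% and 8.11% over all tested genes. Besides Entpd2, these were Entpd1, which encodes CD39, with 20 bleomycin and 50 saline counts, and Enpp2, autotaxin, with 54 bleomycin and 313 saline counts, 5.73-fold lower (4.28 to 7.80).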

How the data were processed

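Tags of 2 SOLiD SAGE libraries, Bleomycin and Saline, were deposited by the authors as whole-number counts per gene. BWA 0.6.2 and the mm9 build are listed in the submitters' processing notes without further detail. No label says how tags were assigned to genes or whether values were scaled before deposit, and the statistics assume raw counts. With no molecular identifiers named, intervals and floors cover counting error only, and nothing says how the 3 mice of a library were combined.

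Of 16040 genes, 33 entries carried a phrase instead of a symbol. They held 0.86% of counts and were matched to no gene name. Older symbols were matched through RefSeq records, which covered 90.1% of genes. Libraries were scaled by TMM in edgeR 4.0.16 (factors 0.986 for bleomycin and 1.01 for saline), and DESeq2 1.42.0 gave alternative size factors. The DESeq2 size factors were 1 for both libraries, so that setting compared the counts without scaling. With no replicates, the edgeR quasi-likelihood test could not be fitted. Genes with at least 10 counts were therefore tested by a two-sided exact binomial test in scipy 1.17.1, with Benjamini-Hochberg adjustment, and ratios have Clopper-Pearson 95% intervals. Log2 ratios add 0.5 to each count, and a count of 0 was bounded by a floor of 3 counts. The test was checked on simulated counts that held counting error only. They had no variation between animals or libraries, so the check says nothing of that spread.

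The 10 genes, the lists and the tests were chosen with earlier results of these data known. Named besides the 10 were the defining markers of other cell types (1 is not reported here), up to 6 genes of each list, by calls and then by counts, and the 5 unlisted genes nearest in ratio. Mfap5, Fbn1, Il33, Fbln2, Prg4, Acta2, Plvap and Ly6c2 were outside this rule and were named after their values were seen. Pdgfra and Lum were also outside it, and were named without values as genes on more than 1 list.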

Additional observations from a re-analysis of the deposited data

How the results depend on the processing

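The 7 lower calls and 0 higher calls among the 10 adventitial genes were the same in number with total counts, with DESeq2 size factors and with no minimum count. A minimum of 50 counts left 6 lower among 9 tested, because Dpp4 with 13 counts was not tested. A required ratio of 3 left 6, without Dpt, and Bonferroni adjustment left 6, without Dpp4. The median log2 ratio of the 10 genes lay between −1.74 with total counts and −1.64 with a prior count of 5. Over all 9369 tested genes, 805 (8.59%) were lower and 760 (8.11%) higher. A minimum of 50 counts left 4823 tested genes, with 491 lower (10.2%) and 401 higher (8.31%). Of 9369 tested genes, a ratio of 3 gave 458 lower (4.89%) and 460 higher (4.91%). Bonferroni adjustment gave 335 lower (3.58%) and 288 higher (3.07%). With a prior count of 5 the median of endothelial markers was −2.20 and that of alveolar fibroblast genes −1.47, and with a minimum of 50 counts the smooth muscle median was 0.0098. Pericyte markers had 3 lower with that minimum or with Bonferroni adjustment, and dermatopontin partners 3 higher and 0 lower with a ratio of 3. Tfrc and Slc40a1 were not called with either the minimum or Bonferroni adjustment. No paired analysis was possible because each group is 1 library. No library could be left out for the same reason, and the depth limits Dpp4 most, whose 0 bleomycin counts have an exact upper limit of 3.40 CPM.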

Other observations

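Outside all lists, the genes whose log2 ratio lay nearest to the −1.70 median of the 10 adventitial genes were sought among 1494 genes with at least 200 counts over both libraries. They were Adh1, Rps4x, Zfp36, Htra1 and Dpep1, each within 0.0265 of that median. Adh1, an alcohol dehydrogenase that can oxidise retinol, had 434 bleomycin and 1432 saline counts, a ratio of 0.306 (exact interval 0.275 to 0.341). Dpep1, a membrane dipeptidase, had 353 bleomycin and 1179 saline counts, and Htra1, a secreted serine protease, had 89 bleomycin and 288 saline counts. Zfp36, an RNA-binding protein that promotes decay of inflammatory transcripts and is induced rapidly by stimuli, had 1097 bleomycin and 3551 saline counts. Rps4x, a ribosomal protein gene with 51 bleomycin and 167 saline counts, may share tags with copies elsewhere in the genome and is uncertain. With 2 libraries, likeness rests on a ratio alone and says nothing of shared function.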
